A study of Mus musculus with 3 samples.

Results

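*Gm8797*, *Mxra7*, *Mettl23*, *Hddc3*, *Cwc22*, *Alox5ap* and *Pttg1* are 7 of the 19946 genes listed in at least 1 of the 3 deposited libraries of mouse retinal cells. They were chosen because they differed between single retinas or with the *Sstr2* genotype in these same data, so the differences that picked them are described below and not tested. All but *Alox5ap* are known to have been picked on the postnatal day 0 (P0) retinas. How *Alox5ap* was picked is not recorded, and no test of it is given at either age.

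The study pooled dissociated retinas in 3 droplet libraries and told the samples apart by MULTI-seq, in which cells are marked with lipid-anchored barcode oligos before pooling. The P0 library and the postnatal day 14 (P14) library each held 5 retinas, namely 1 wild type, 2 heterozygous and 2 homozygous for a deletion in *Sstr2*, the somatostatin receptor gene targeted in the study. The deletion, the em1(IMPC) allele, was made in C57BL/6N mice, the carriers were outbred to CD1, and their offspring were intercrossed. The retinas thus came from littermates of mixed C57BL/6 and CD1 descent, and alleles at loci not linked to *Sstr2* were free to differ between them. Alleles close to *Sstr2* on chromosome 11 could be passed on together with the deletion. The third library held 8 samples of wild-type CD1 explants, started at embryonic day 14 and cultured for 6 days with an Sstr2 agonist at 0, 5, 50 or 500 nM. There were 2 samples per dose, each called an explant below, and this library is a reference here. With 1 wild-type retina per age, how far wild types differ from each other is unknown. The sources do not tie retinas to animals, so the p-values below measure only the spread between these samples. The 2 retinas differed in sex in 3 of the 4 pairs of a genotype and so were of separate animals there, the P14 knockouts being the pair for which this is unknown.

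After the deposited sample calls, the P0 retinas held 1018 to 1254 cells and 8822880 to 10793649 unique molecular identifiers (UMIs, 1 per captured molecule), and the P14 retinas 304 to 1000 cells and 1266730 to 5886669 UMIs. The explants held 318 to 1075 cells and 1281682 to 4237324 UMIs. Levels are given as UMIs of a gene scaled to a total of 1000000 UMIs in the same retina and cell type (CPM). The deposited cell types passed a marker check in 15 of 15 cases, each having the highest summed level of its own marker list. Microglia were not a deposited type, and this check does not show whether a type also held them. The libraries shared 4 to 9 cell barcode sequences per pair. At P14, amacrine cells numbered 4 to 23 per retina and are left out of the comparisons between types, which were made in rods, cones, bipolar cells and Müller glia.

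The products of the 7 genes work in unrelated processes. *Gm8797* is a predicted single-exon gene that resembles *Ubb*, a polyubiquitin gene whose product is cut into ubiquitin units that mark proteins for turnover. *Mettl23* encodes a methyltransferase-like protein and *Mxra7* a matrix-remodelling-associated protein, while *Hddc3* encodes an HD-domain phosphohydrolase. *Cwc22* encodes a spliceosomal protein that brings Eif4a3 of the exon junction complex to spliced RNA. *Pttg1* encodes securin, which holds back separase until anaphase and is used by dividing cells. *Alox5ap* encodes the helper of 5-lipoxygenase in leukotriene synthesis and is best known from myeloid cells such as microglia.

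Because reads of near-identical genes can be divided between copies, the coding sequence of *Gm8797* (GRCm38 chr3:5750904-5751137, plus strand, within the only exon) is shown with the last coding unit of *Ubb* (GRCm38 chr11:62552830-62553063, plus strand), both from the GENCODE transcripts. Capitals mark the bases at which they differ.
Gm8797: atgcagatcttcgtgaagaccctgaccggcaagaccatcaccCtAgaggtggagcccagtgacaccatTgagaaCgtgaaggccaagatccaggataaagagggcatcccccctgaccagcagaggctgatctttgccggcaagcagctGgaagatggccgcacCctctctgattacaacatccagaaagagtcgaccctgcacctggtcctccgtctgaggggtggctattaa
Ubb: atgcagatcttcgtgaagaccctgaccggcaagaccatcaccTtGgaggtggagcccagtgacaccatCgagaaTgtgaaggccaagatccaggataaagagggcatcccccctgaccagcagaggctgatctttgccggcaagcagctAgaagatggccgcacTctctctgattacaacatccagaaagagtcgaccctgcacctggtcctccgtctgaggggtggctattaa
Over these 234 bases there were 6 differences, written with the *Ubb* base first, the position counted from 1 at the A of the ATG, and the *Gm8797* base last: T43C, G45A, C69T, T75C, A150G and T165C. All 6 left the encoded residue unchanged. *Ubb* holds 4 such units in 918 coding bases. Past the stop codon, the 148 transcribed bases of *Gm8797* and the 149 of *Ubb* had 0 mismatches and 1 gap, which is the part of a transcript that a 3′ library reads first. A further copy, *Gm1821*, matched *Gm8797* at 98.724% over 392 bases and is not listed in any of the deposited libraries. UMIs of *Gm8797* and *Ubb* are therefore uncertain in their split, and how reads with several equal matches were counted is not given in the sources used here.

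The other members differed in how far they stand from such copies. *Cwc22* (chr2:77881159-77946375, minus strand) matched 7 annotated genes, *Gm13691* and *Gm13693* to *Gm13698*, at 96.858% identity over 2514 bases. None of these is listed in the deposited libraries. *Mettl23* (chr11:116843278-116854263, plus strand) matched *Gm14127* at 98.361% over 427 bases, and it also overlaps *Mfsd11* on its own strand and *Srsf2* and *Jmjd6* on the other. *Hddc3* (chr7:80343104-80350547, plus strand) overlaps *Man2a2* and *Gm18310*, and *Alox5ap* (chr5:149264767-149288153, plus strand) overlaps *Gm19719*, all on the opposite strand. Whether the counting used strand is not given in the sources used here, so values of overlapping genes are uncertain in the same way. *Mxra7* (chr11:116803062-116828046, minus strand) and *Pttg1* (chr11:43420250-43426251, minus strand) had no match of at least 95% over 200 bases and no overlap. All positions are of GRCm38 with the GENCODE M21 annotation.

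*Sstr2* itself (chr11:113619342-113626028, plus strand) was not lower with the deletion. In P0 neurogenic progenitors, the type with the most *Sstr2*, its level was 112 CPM in the wild type, 189 and 248 in the heterozygotes and 294 and 375 in the knockouts, so the genotypes did not overlap and the knockouts were highest. At P14 it was between 0 and 4.30 CPM over all cells. Where the deleted part lies relative to the 3′ tags is not given in the sources used here, so these counts check nothing about the labels.

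Retinas of both sexes were present among the P0 heterozygotes, the P0 knockouts and the P14 heterozygotes. At P0, *Xist*, the RNA of the inactive X chromosome, was 1483 CPM in heterozygous retina 1 and 1488 in knockout retina 2, and 2.23 to 6.01 in the other 3. At P14 it was 1903 CPM in heterozygous retina 2 and 3.23 to 12.9 in the other 4. These low levels give the size of signal that reached retinas from the rest of their pool. They were 0.367% to 0.986% of the level over the whole P0 library and 2.15% to 8.62% at P14, where *Ddx3y*, a Y-linked gene, stood at 9.86% in heterozygous retina 2. The Y-linked *Eif2s3y* and *Uty* had 11.8 and 4.74 CPM in that retina. In the other P14 retinas they had 41.0 to 65.7 and 35.8 to 51.6 CPM. The values of P14 heterozygous retina 2 came from 9 UMIs of *Ddx3y*, 15 of *Eif2s3y* and 6 of *Uty*. At P0, *Ddx3y* was 0.636% to 1.45% of the library level in its low retinas. Whether the size of this signal differed between genes was not tested.

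*Gm8797* was far lower in the knockouts than in the other retinas in all 5 cell types at P0 and all 4 at P14. Over all cells at P0, it was 241 CPM in the wild type, 435 and 226 in the heterozygotes, and 18.8 and 20.1 in the knockouts. The knockouts lay below the other 3 retinas in 5 of 5 types, where 10.0% of all genes at 20 CPM or more had both knockouts lowest over all cells. The heterozygous pair did not sit together, since retina 1 lay well above the wild type and retina 2 close to it.

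The P0 values of *Gm8797* were alike from type to type. In primary progenitors the wild type had 221 CPM, the heterozygotes 415 and 220, and the knockouts 17.5 and 19.7. In amacrine cells these were 277, 458 and 227, and 14.2 and 23.1. The mean of the 3 other retinas was 14.5 to 17.2 times that of the knockouts over the 5 types.

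At P14, in other animals, the order of the genotypes did not overlap for *Gm8797*. Over all cells the wild type had 463 CPM, the heterozygotes 229 and 251, and the knockouts 34.8 and 38.1. In rods these were 496, 246 and 250, and 37.9 and 36.0. The level fell with the number of deleted alleles, without overlap, in 4 of 4 types (2.10% of genes fell so over all cells), and the mean of the other retinas was 8.95 to 9.58 times that of the knockouts over these types. The highest retina was thus heterozygous retina 1 at P0 and the wild type at P14.

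With counts summed per retina and edgeR's quasi-likelihood test over all genes, *Gm8797* fell in the P14 knockouts against the wild type in each of the 4 types. In rods, log2 fold change was -3.73 (SE 0.149, adjusted p = 2.00e-08). It was -3.70 in bipolar cells (SE 0.364, adjusted p = 3.93e-12), -3.75 in Müller glia (SE 0.269, adjusted p = 2.51e-09) and -3.83 in cones (SE 0.346, adjusted p = 2.15e-19). Few genes fell in these tests, 0.0106% of 9474 genes in rods, 0.0455% of 8787 in bipolar cells, 0.0454% of 8816 in Müller glia and 0.255% of 5093 in cones. These shares count *Gm8797* itself, which was the only gene to fall in rods. The types come from the same 5 retinas and are not replicates of each other. In cones, of which heterozygous retina 2 had 11, leaving out either knockout retina left 0 genes past the threshold with edgeR (92 and 70 genes at an unadjusted p under 0.05), *Gm8797* among those lost, with log2 values of -3.42 and -4.19.

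The share of *Gm8797* in the UMIs of *Gm8797* and *Ubb* together fell into narrow levels. At P0 over all cells it was 7.40% in the wild type (95% exact binomial interval 7.12% to 7.68%), 13.97% (13.6% to 14.3%) and 7.38% (7.10% to 7.67%) in the heterozygotes, and 0.589% (0.503% to 0.685%) and 0.623% (0.540% to 0.716%) in the knockouts. At P14 it was 14.2% (13.7% to 14.7%) in the wild type, 7.04% and 7.33% in the heterozygotes, and 1.20% and 1.14% in the knockouts. These intervals cover counting error only. The shares thus lay close together in the P0 wild type, P0 heterozygous retina 2 and the P14 heterozygotes, and again in P0 heterozygous retina 1 and the P14 wild type.

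The levels of this share were also kept within cell types. Over the 5 P0 types it ranged from 7.16% to 7.74% in the wild type, from 13.2% to 14.3% and from 6.79% to 7.72% in heterozygous retinas 1 and 2, and from 0.401% to 0.719% in the knockouts. Over the 4 P14 types it was 14.2% to 15.0% in the wild type, 6.46% to 8.75% in the heterozygotes and 0.767% to 1.66% in the knockouts. The 8 explants lay between 5.17% and 7.43% over all cells (median 6.39%). The sum of both genes' UMIs, most of it *Ubb*, varied by 1.07-fold among the P0 retinas and 1.18-fold among the P14 retinas. *Ubb* alone varied by 1.20-fold and 1.19-fold.

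**Figure D1:**
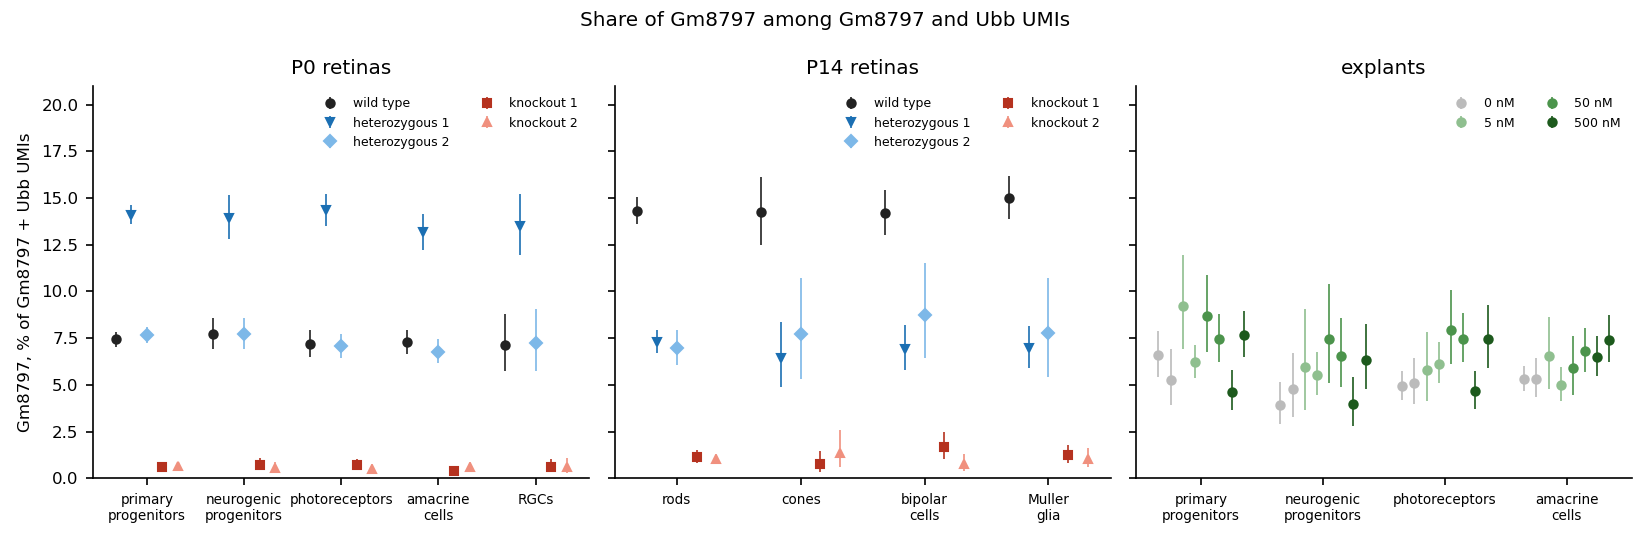
Share of *Gm8797* in the summed UMIs of *Gm8797* and *Ubb*, in percent on the y axis, for each retina (by genotype) or explant in each cell type. At P0 the knockouts lie at 0.401% to 0.719% and heterozygous retina 1 at 13.2% to 14.3%, whereas at P14 the wild type is the highest at 14.2% to 15.0%.

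What remained in the knockouts was above the low level of *Xist*. At P14, *Eif2s3y* stood at 11.8 CPM in heterozygous retina 2 against 41.0 to 65.7 in the other retinas. At P14, not every such signal was thus as low as that of *Xist*, though this one came from 15 UMIs. At P0, *Ddx3y* in its low retinas was 0.636% to 1.45% of the level over the whole library. *Gm8797* in the knockouts was 9.52% and 10.2% of the level over the whole P0 library and 14.3% and 15.7% over the P14 library. How much of it was free RNA, reads of *Ubb* or transcripts of *Gm8797* was not tested.

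*Mettl23* and *Mxra7* lie next to each other, 3.217 and 3.177 Mb from *Sstr2* on chromosome 11, and at P0 both were higher with more deleted alleles. Over all cells at P0, *Mettl23* had 50.3 CPM in the wild type, 78.4 and 76.0 in the heterozygotes and 102 and 103 in the knockouts. *Mxra7* had 229, then 266 and 267, then 327 and 312. In both genes the pairs of a genotype lay close together and the genotypes did not overlap, an order found in 4.80% of all genes at this age. The deletion and the alleles near it on chromosome 11 cannot be told apart in this cross.

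The P0 order was shared by most but not all types. *Mettl23* rose with the number of deleted alleles without overlap in 4 of 5 types. Of genes at 20 CPM or more, 4.27% did so in primary progenitors, 3.11% in neurogenic progenitors, 3.90% in photoreceptors and 2.79% in amacrine cells. In photoreceptors *Mettl23* had 62.4 CPM in the wild type, 99.4 and 93.0 in the heterozygotes and 142 and 138 in the knockouts. In retinal ganglion cells (RGCs), which numbered 12 to 26 per retina, it had 24.0, then 37.8 and 54.0, then 32.4 and 46.9, so that the heterozygous and knockout retinas overlapped there.

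*Mxra7* kept the order in 3 of 5 P0 types, namely both progenitor types and photoreceptors. Its values were spread most in neurogenic progenitors, with 120 CPM in the wild type, 240 and 218 in the heterozygotes and 314 and 318 in the knockouts. In amacrine cells, where its level was highest, it had 356, then 338 and 340, then 377 and 406, and the wild type was not the lowest. The log2 ratio of the knockout mean to the wild type ran from 0.13 to 1.40 over the 5 types for *Mxra7* and from 0.70 to 1.17 for *Mettl23*.

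**Figure D2:**
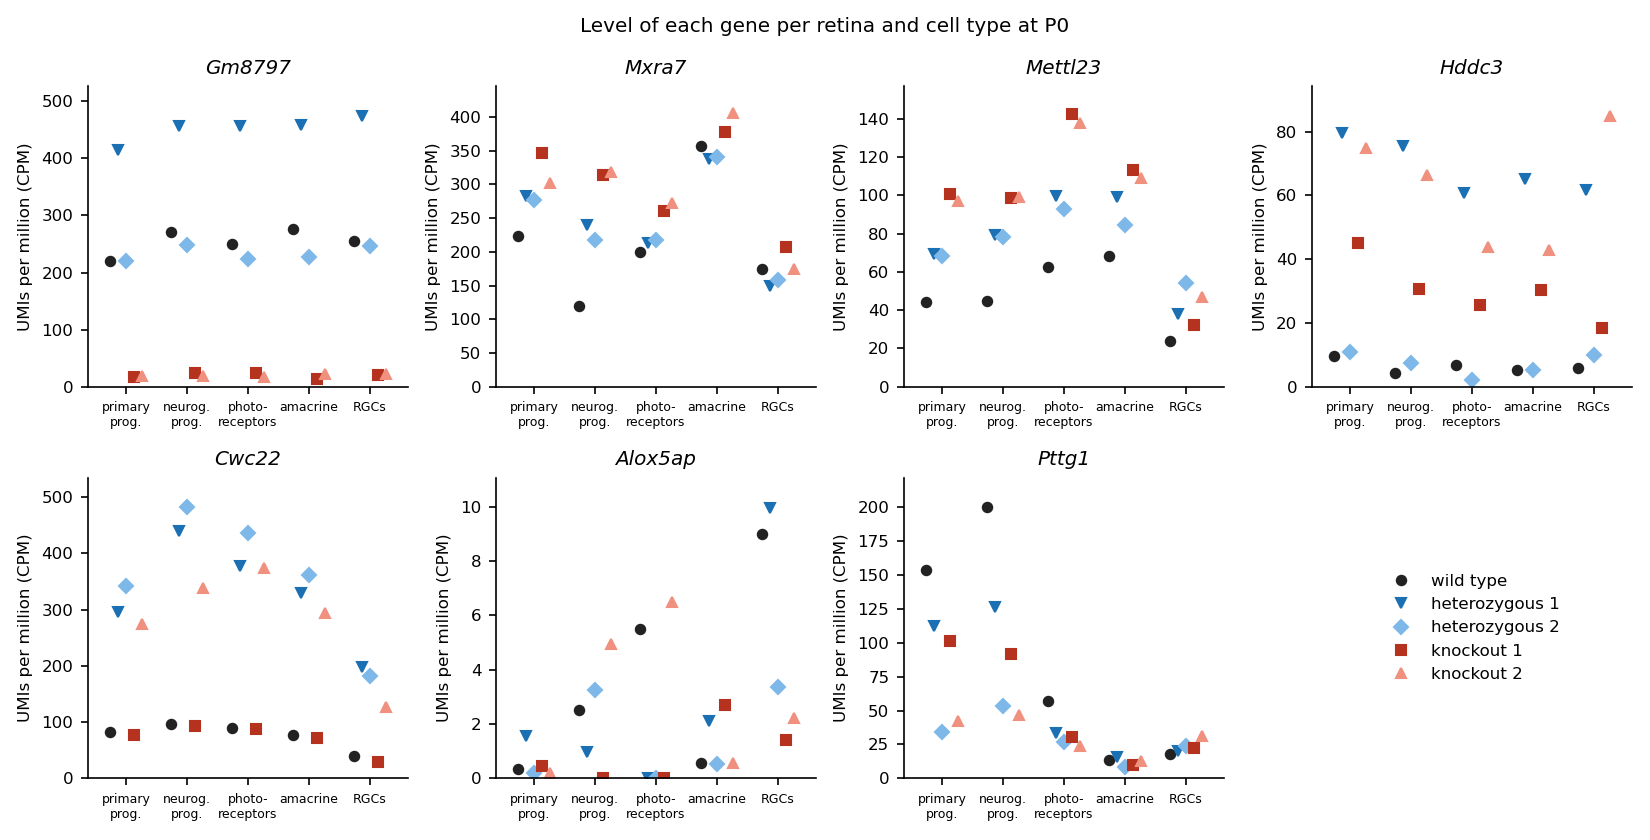
Level of the 7 genes at P0, in CPM (y axis, separate scale per gene), by cell type; each symbol is 1 retina. The knockouts (red) lie lowest in every type for *Gm8797*, and the same retinas stay high in every type for *Hddc3* and *Cwc22*.

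At P14 neither gene passed the test in any of the 4 types. The median log2 ratio of the knockout mean to the wild type over the types was 0.66 for *Mxra7* and 0.40 for *Mettl23*, beside 0.41 and 1.15 at P0. In rods, *Mxra7* had 42.3 CPM in the wild type, 53.6 and 72.2 in the heterozygotes and 91.9 and 81.0 in the knockouts, an order that 2.08% of all genes had. Its log2 fold change in knockouts against the wild type was 1.04 (SE 0.211, edgeR adjusted p = 0.313), where 0.0106% of genes, members included, rose. With no filter on low counts the edgeR adjusted p was 0.00191, with nearly the same fold. *Mxra7* did not pass with DESeq2 (unadjusted p = 0.00567) or with a trend over deleted alleles (edgeR adjusted p = 0.184). Leaving out 1 retina gave log2 fold changes of 0.96 to 1.13, and whether *Mxra7* passed depended on which retina was left out. In Müller glia, where *Mxra7* was highest, the retinas lay between 398 and 466 CPM and the genotypes overlapped.

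*Mettl23* in P14 rods had 63.7 CPM in the wild type, 71.4 and 75.8 in the heterozygotes, and 66.6 and 90.0 in the knockouts, which overlapped. The log2 fold change was 0.33 (SE 0.196, edgeR adjusted p = 1.000). Müller glia were the type in which it rose with the number of deleted alleles without overlap, from 44.9 CPM in the wild type over 56.0 and 60.7 to 68.7 and 76.8, as did 1.69% of genes there.

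The neighbourhood of *Sstr2* was examined because position had no part in choosing the genes. Of 160 genes tested within 10 Mb of *Sstr2* in P14 rods, 0 passed with edgeR, and their median log2 fold change was 0.01, as it was over all genes. At P0 the comparison had itself picked members, so threshold calls there are given as a description and not read as a test. *Sstr2* itself left aside, the genes of this window past the threshold at P0 were the members *Mettl23* and *Mxra7*. *Mettl23* passed only in primary progenitors (of 187), where 0.0251% of all genes passed. *Mxra7* passed only in neurogenic progenitors (of 140), where 0.0334% of all genes passed. *Srsf2*, which overlaps *Mettl23*, also rose with the number of deleted alleles without overlap over all cells. At P0 it had 377 CPM in the wild type, 407 and 399 in the heterozygotes and 460 and 473 in the knockouts (4.80% of genes rose so). At P14 *Srsf2* had 197, then 205 and 226, then 276 and 270 (1.21% of genes). *Jmjd6*, also overlapping, had this order at P14 but not at P0. Within 1 Mb of each member, 0 other genes passed in P14 rods. At an unadjusted p under 0.05 there were 290 genes in P14 rods as a whole.

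**Figure D3:**
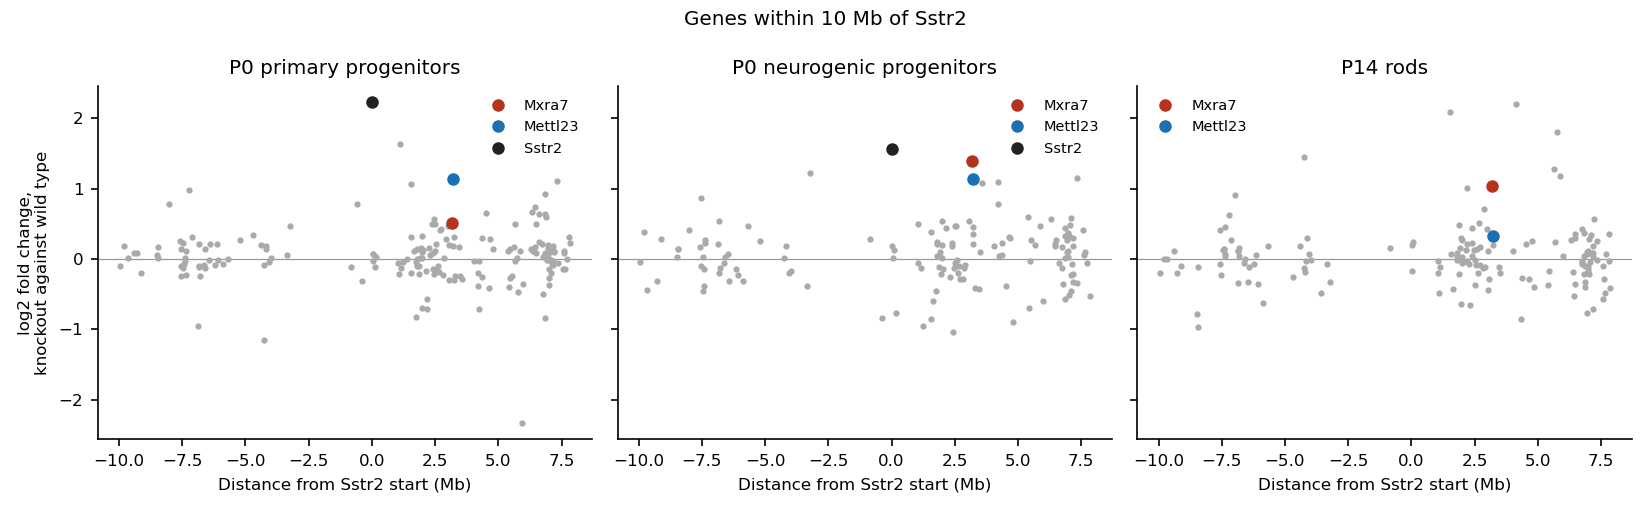
Log2 fold change of knockouts against the wild type (y axis) for genes within 10 Mb of *Sstr2*, by distance from its start in Mb (x axis), in P0 primary progenitors, P0 neurogenic progenitors and P14 rods; each point is 1 gene. *Mxra7* and *Mettl23*, 3.177 and 3.217 Mb away, stand above most neighbours at P0, as does *Sstr2* itself (log2 fold changes of 2.23 and 1.57), while the P14 median is 0.01.

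*Hddc3* differed between single retinas without following the genotype. Over all cells at P0 it had 7.85 CPM in the wild type, 72.9 and 8.01 in the heterozygotes, and 36.5 and 64.4 in the knockouts. Its highest retina was 9.29 times the lowest, and 0.194% of all genes had as large a fold. The 2 heterozygous retinas stood at opposite ends.

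The same retinas were high in every P0 type. Heterozygous retina 1 and both knockouts had more *Hddc3* than the other 2 retinas in 5 of 5 types. Which retinas are called high was set from the level over all cells, to which these types themselves add up. Such counts, for *Hddc3* and *Cwc22* at both ages and *Pttg1* at P0, are thus a description. No share of all genes was computed for them. In primary progenitors the values were 9.82 CPM in the wild type, 79.6 and 10.98 in the heterozygotes and 45.1 and 74.9 in the knockouts. The low retinas were not at the floor of the pool, with 20.8% and 21.2% of the level over the whole library.

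At P14, *Hddc3* had 55.5 CPM in the wild type, 33.0 and 13.4 in the heterozygotes, and 48.6 and 9.93 in the knockouts over all cells. The wild type was thus high at P14 and low at P0, and each mutant genotype held 1 higher and 1 lower retina at P14. The same 3 retinas stayed higher in 3 of 4 types, the exception being bipolar cells, in which heterozygous retina 2 had 4 UMIs and knockout retina 2 had 2. In cones, heterozygous retina 2 and knockout retina 2 had 0 UMIs. The test in rods gave a log2 fold change of -0.86 (SE 0.546, edgeR adjusted p = 1.000), and the value was 0.02 without knockout retina 2 and -2.78 at the other extreme of the fits that leave out 1 retina.

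*Cwc22* also went by retina and not by genotype. Over all cells at P0 it had 82.8 CPM in the wild type, 325 and 373 in the heterozygotes, and 75.3 and 292 in the knockouts. The 2 knockouts differed by more than either did from its nearest other retina, and the highest retina was 4.96 times the lowest, a fold reached by 0.275% of genes. Both heterozygous retinas and knockout retina 2 were above the others in 5 of 5 types. In neurogenic progenitors, with the highest levels, the values were 96.9, then 440 and 482, then 93.8 and 339 CPM.

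At P14, *Cwc22* had 29.6 CPM in the wild type, 71.3 and 33.9 in the heterozygotes, and 122 and 29.5 in the knockouts over all cells. Heterozygous retina 1 and knockout retina 1 were above the other 3 in 4 of 4 types, with 85.2 and 124 CPM in rods against 36.7 to 38.5 in the rest. The knockout mean against the wild type in rods was 1.12 on the log2 scale (SE 0.492, edgeR adjusted p = 1.000), and it ranged from 0.08 to 1.77 when 1 retina was left out, the low end without knockout retina 1. With no filter on low counts it passed (edgeR adjusted p = 0.00100), but not with DESeq2 (unadjusted p = 0.304) or with a trend over deleted alleles. Whether it passed also depended on which retina was left out.

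The listed partners of *Cwc22* are given as a description, since *Cwc22* was chosen for its spread between retinas. In P0 primary progenitors the 11 genes of the exon junction and splicing list had highest retinas 1.03 to 1.31 times their lowest, with a median of 1.15, where 1.32% of all genes reached 2-fold and *Cwc22* 4.43-fold. In P14 rods, 11 of 11 were tested and 0 passed in either direction, where 0.0211% of all genes, members included, did. The median log2 fold change of the 11 was 0.04 beside 0.01 over all genes.

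*Pttg1* was lower in some retinas at P0 and nearly absent from the wild type at P14. Over all cells at P0 it had 117 CPM in the wild type, 81.7 and 30.2 in the heterozygotes, and 70.0 and 34.4 in the knockouts. In primary progenitors the values were 154, then 112 and 33.8, then 101 and 42.3 CPM. Heterozygous retina 2 and knockout retina 2 were lowest in both, and this held in 3 of 5 types. Amacrine cells and RGCs, with levels of 8.58 to 15.4 and 18.0 to 31.3 CPM, had another order.

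The genes that act with securin in mitosis are likewise given as a description. Of the securin and anaphase list, 16 genes other than *Pttg1*, among them *Cdc20*, *Ccnb1* and *Espl1*, had highest retinas 1.08 to 1.71 times their lowest in primary progenitors, with a median of 1.29. *Pttg1*, chosen on these retinas, had 4.55 there, and 1.32% of all genes reached 2-fold.

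At P14, *Pttg1* had 2.38 CPM in the wild type (14 UMIs), 35.8 and 15.0 in the heterozygotes and 32.2 and 33.1 in the knockouts over all cells. In Müller glia these were 3.87, then 43.4 and 27.0, then 49.6 and 68.4 CPM. In rods they were 1.87, then 22.6 and 9.62, then 9.27 and 11.8 CPM. Every other retina had at least 2 times the wild-type level in 4 of 4 types. Of genes at 20 CPM or more, 0.0341% did so in rods, where *Pttg1* itself was below that level, 0.0583% in bipolar cells, 0.116% in Müller glia and 0.694% in cones. The mean of the other 4 was 7.12 to 24.2 times as high over the 4 types, the 24.2 being in cones, with 1 wild-type UMI. Heterozygous retina 2 had 1 UMI of *Pttg1* in cones, 3 in bipolar cells and 4 in Müller glia, against 1, 3 and 5 in the wild type. Its higher CPM in these types thus came with fewer UMIs in total. The wild-type level over all cells was 11.1% of that over the whole library. This was above the range of *Xist* in its low retinas but near the 9.86% of *Ddx3y* in heterozygous retina 2. How much of it came from the rest of the pool was not tested.

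For *Pttg1* in the P14 knockouts the edgeR fit is given as a description, since with so few UMIs in the wild type the gene passed the filter on low counts through the retinas in which it was high. The fitted log2 fold change against the wild type was 3.97 in bipolar cells (SE 0.703), 3.86 in Müller glia (SE 0.544) and 4.44 in cones (SE 0.915), from 3, 5 and 1 UMIs in the wild type, and 2.47 in rods (SE 0.700). Threshold calls are not read as a test of *Pttg1*. With edgeR they came in the first 3 of these types, where 0.0455%, 0.0113% and 0.157% of genes, *Pttg1* included, were higher and past the threshold. With DESeq2 or with a trend over deleted alleles they came in none of the 4. Knockouts were not above heterozygous retinas in rods, with a log2 difference of -0.77. The wild-type cones also had less of the cone marker list (13414 CPM against 18981 to 20824 in the other retinas) and more of the rod list (19152 against 10705 to 15757), and the part of this in the cone result was not tested.

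**Figure D4:**
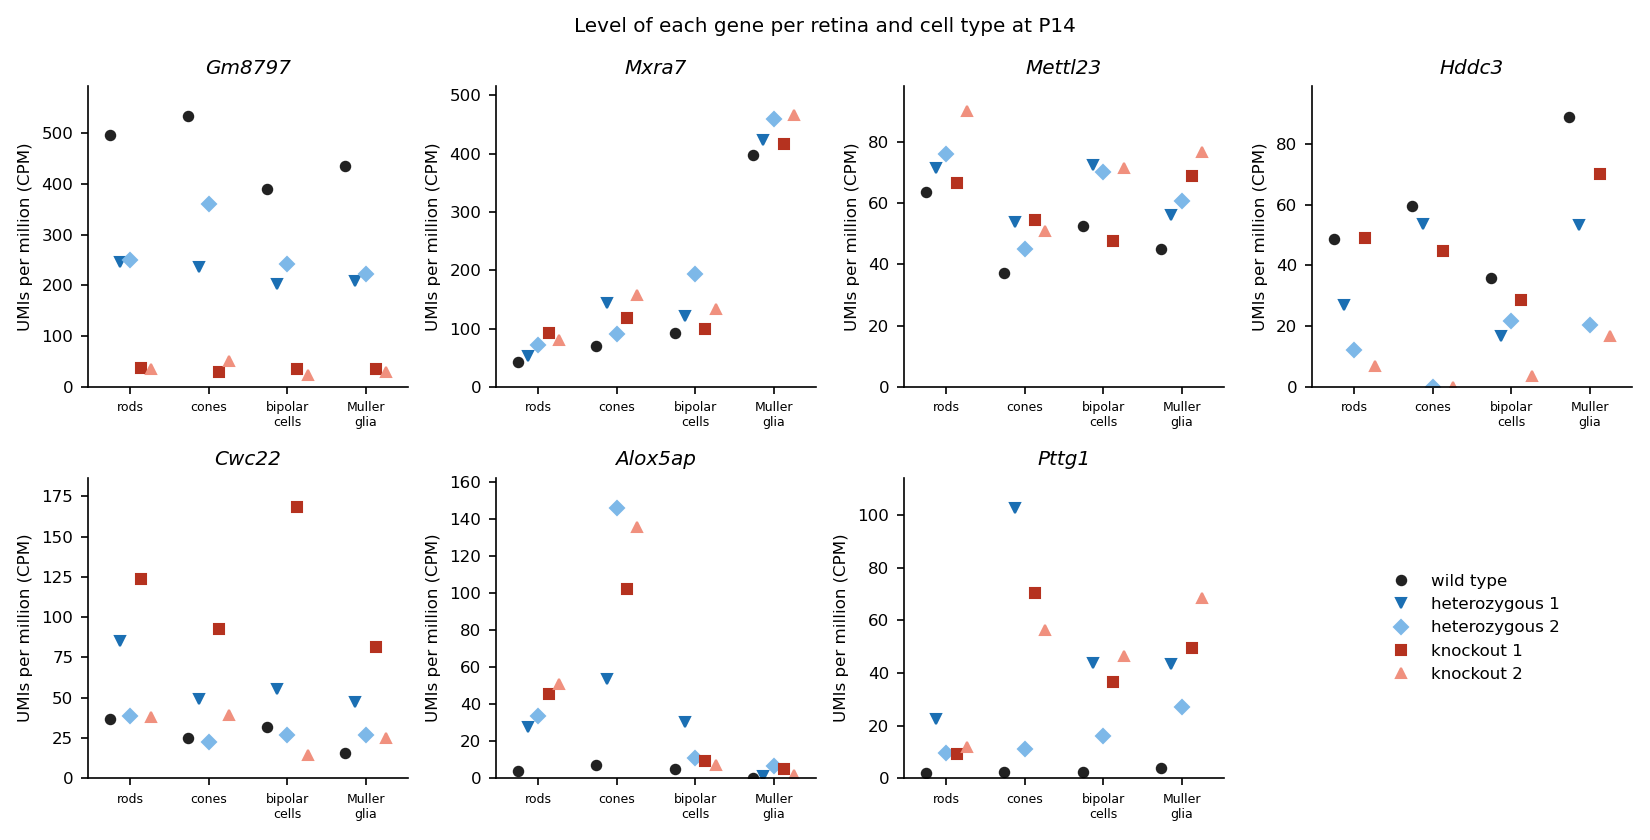
Level of the 7 genes at P14, in CPM (y axis, separate scale per gene), by cell type; each symbol is 1 retina. The wild type (black) is highest for *Gm8797* and lowest for *Pttg1* in all 4 types, and lowest for *Alox5ap* in rods, at 3.75 CPM against 27.6 to 51.2.

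*Alox5ap* was hardly detected before P14. At P0 it had 1.65 CPM in the wild type, 1.67 and 0.652 in the heterozygotes, and 0.793 and 1.73 in the knockouts, from 7 to 18 UMIs per retina. In the explants it was between 0 and 1.56 CPM, with 11 UMIs in all 8 together.

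At P14 its level was highest in cones in each of the 5 retinas. In rods it had 3.75 CPM in the wild type (10 UMIs), 27.6 and 33.7 in the heterozygotes and 45.5 and 51.2 in the knockouts. In cones it had 7.46 CPM in the wild type (3 UMIs), 53.6 and 146 in the heterozygotes and 102 and 136 in the knockouts. Müller glia had 0 to 6.75 CPM from 0 to 4 UMIs. The wild type was thus the low retina in both photoreceptor types, and the values of the other 4 overlapped between genotypes in cones but not in rods. In rods, 2.08% of genes at 20 CPM or more rose with the number of deleted alleles without overlap.

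The fitted log2 fold change of *Alox5ap* in knockouts against the wild type was 3.69 (SE 0.351) in rods and 3.86 (SE 0.626) in cones, given as a description. In bipolar cells it was 0.75 (SE 1.10), where heterozygous retina 1 had the highest level with 30.2 CPM and the wild type 5.01. Over the 4 types the mean of the other retinas was 2.88 to 14.7 times the wild type. The wild-type level over all cells, 3.23 CPM, was 15.6% of that over the whole library.

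Markers of microglia, a cell type known for *Alox5ap*, were near 0 in the P14 photoreceptors but not in the deposited bipolar cells. The summed level of the 8 microglial markers in rods was 1.20 to 12.7 CPM, highest in the wild type, and in cones it was 0 in 4 of 5 retinas. Over all cells it was 72.0 CPM in the wild type, 37.2 and 9.47 in the heterozygotes and 139 and 83.1 in the knockouts, with 4 of the 8 markers above 0 in heterozygous retina 2 and 8 of 8 in the others. With the cells of the 5 retinas pooled by type, the sum was 329 CPM in bipolar cells and 41.5 in Müller glia. It was 6.00 CPM in rods and 0.830 in cones. The part of microglia in the levels of *Alox5ap*, those of bipolar cells included, was not tested. *Alox5*, the lipoxygenase that Alox5ap serves, was at 0 in the rods of all 5 retinas, and *Ltc4s* was at 0 to 0.749 CPM. Of the 4 other leukotriene genes listed, 2 could be tested in rods and 0 passed with edgeR, where 0.0211% of all genes, members included, did.

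The explants gave the spread of the 7 genes without a deleted allele. Over all cells, the lowest, median and highest explant had 118, 130.2 and 134 CPM of *Gm8797*. For *Hddc3* these were 55.1, 67.7 and 76.4, for *Cwc22* 77.8, 100.1 and 141, and for *Pttg1* 47.9, 54.9 and 66.9. For *Mxra7* they were 178, 191 and 206, and for *Mettl23* 57.2, 71.7 and 77.2. Over all cells, 0 of the 6 genes at 20 CPM or more reached 2-fold between the highest and lowest explant (3.51% of genes). The explants had no part in choosing the members. Within types, 2 of 6 reached 2-fold in neurogenic progenitors (49.7% of genes) and 2 of 5 in photoreceptors (28.4%). In primary progenitors (20.9%) 0 of 6 did, and in amacrine cells (24.2%) 0 of 5. Over all cells, 5 of 6 reached 2-fold among the P0 retinas (1.26% of genes) and 5 of 7 among the P14 retinas (7.17%). From this nothing is read, since differences between retinas picked the genes.

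**Figure D5:**
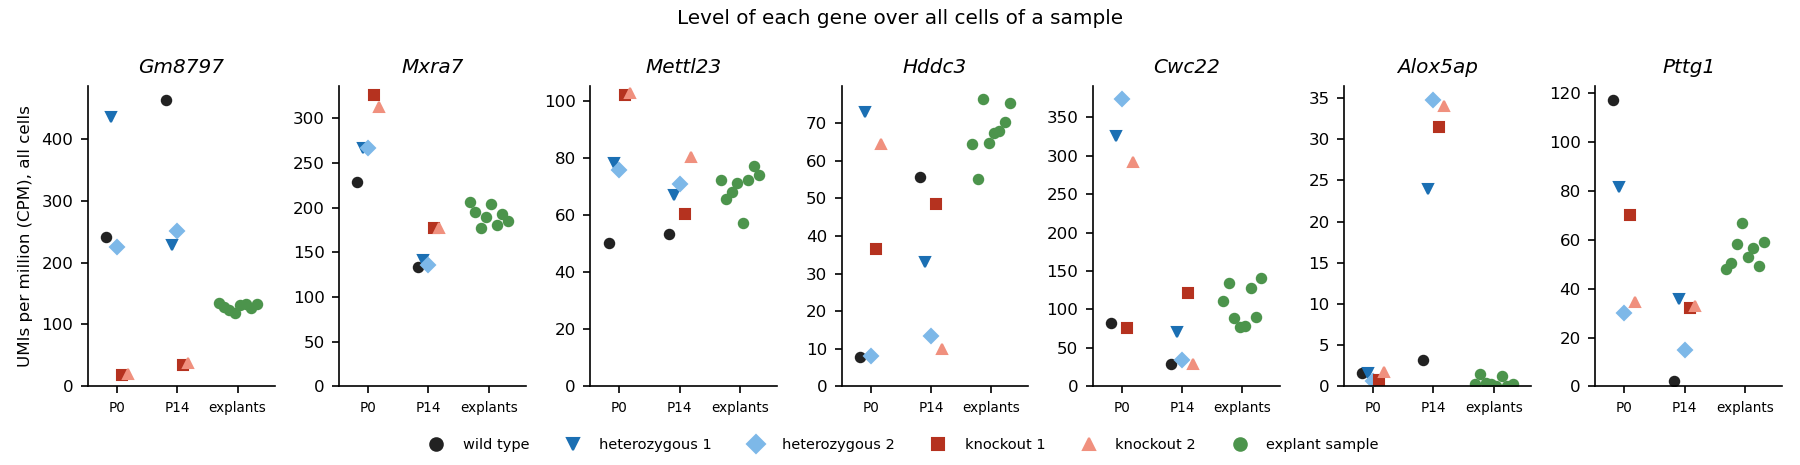
Level of each gene over all cells of a retina or explant, in CPM (y axis), in the explant, P0 and P14 libraries; each symbol is 1 sample. The 8 explants lie within 1.14-fold for *Gm8797* and within 1.81-fold for *Cwc22*, and the retinas of each age spread further for both. Some explants mixed cells of both sexes, so their spread is not one between single animals.

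At 500 nM against 0 nM of agonist, 0 of the 6 members tested passed in explant primary progenitors, the type fitted. The log2 fold changes were -0.30 for *Gm8797* (SE 0.174, edgeR adjusted p = 0.654), -0.42 for *Cwc22* (SE 0.190, adjusted p = 0.548) and 0.23 for *Pttg1* (adjusted p = 0.778). For *Mxra7* it was -0.20 (adjusted p = 0.728), for *Mettl23* -0.14 (adjusted p = 0.900) and for *Hddc3* 0.01 (adjusted p = 0.998). In this comparison 0.317% of 8514 genes passed. *Alox5ap* was too low to be tested. The Y-linked *Ddx3y* was at 0.714 and 1.14 CPM in the 500 nM explants and at 31.4 and 26.5 in the 0 nM explants over all cells, and *Xist* at 2684 and 2639 against 1301 and 1198 CPM, so dose and the sex of the donor embryos cannot be told apart in this comparison.

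*Ubb*, the polyubiquitin gene that *Gm8797* resembles, spread far less between retinas. Over all cells at P0, *Ubb* had 3019 CPM in the wild type, 2681 and 2832 in the heterozygotes, and 3177 and 3210 in the knockouts. It was lowest in heterozygous retina 1, which had the most *Gm8797*, but as the 2 genes may exchange reads their values are not independent.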

How the data were processed

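Single-cell 3′ RNA libraries (10x Chromium) of 3 pools were analysed. Per the labels, the submitters' processing notes name Cell Ranger 3.1.0, Seurat 3 and the mm10 build. The deposited raw matrices hold UMI counts per gene and cell, and the authors' annotation gave the sample barcode, condition and cell type. The authors' transformed (SCT) matrices were not used. The authors assigned barcodes to samples with deMULTIplex. All annotated cells were used, with no doublet caller run here. The numbers of retinas within a genotype follow their barcode order and are names only.

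UMI counts were summed per sample and type (at least 10 cells in every retina) and tested over all genes with edgeR 4.0.16 in R 4.3.3 (TMM, filterByExpr, quasi-likelihood test, Benjamini-Hochberg adjustment, threshold 0.05), with DESeq2 1.42.0 as an alternative. P14 fits used all 5 retinas with genotype as a factor, and explant fits all 8 explants with dose as a factor. The spread is that of the pairs. The tests were tried on simulated data. Counts over genes by order or fold used those with a mean of at least 20 CPM. Copies were sought with blastn 2.17.0 (at least 95% over 200 bases). Other alternatives were the size factors, the filter, single retinas or explants left out, deeply covered cells left out, all cells summed, and cells thinned to 2000 UMIs. The named genes were the 7 members, *Sstr2*, markers of sex, listed leukotriene, splicing and anaphase genes, and the genes most like each member; some named by this rule are not reported here. The members and lists were chosen with earlier results of these data known.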

Additional observations from a re-analysis of the deposited data

Results flagged for a closer look

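For 2 genes the knockouts lay on opposite sides of the wild type at the 2 ages, and the difference between the ages was not tested. The knockout mean of *Hddc3* over all cells was 6.43 times the wild type at P0, with both knockouts above it, and below it at P14, with both knockouts below it. In P14 rods, however, knockout retina 1 was the highest retina, above the wild type. The knockout mean of *Pttg1* over all cells was 0.445 times the wild type at P0, with both knockouts below it, and above it at P14, with both knockouts above it. Each age had 1 wild-type retina.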

How the results depend on the processing

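No paired analysis was possible because the retinas and explants carry no replicate number of their own, so the planned fits with a replicate block were not run. The numbers of genes past the threshold (2 in P14 rods, 8 in bipolar cells, 5 in Müller glia, 21 in cones and 27 in explants) moved with the settings. With DESeq2 they were 1 in bipolar cells, 1 in Müller glia, 2 in cones and 4 in explants; with no filter on low counts 31 in rods, 43 in Müller glia and 67 in explants; with a trend over deleted alleles 4 in rods, 4 in bipolar cells and 1 in Müller glia. Knockouts against heterozygous rods gave 1. Leaving out 1 sample gave 1 to 25 in rods, 10 to 22 in bipolar cells, 30 to 51 in Müller glia, 0 to 27 in cones and 6 to 241 in explants.

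In P14 rods, log2 fold changes with no filter were 1.02 for *Mxra7* and 1.09 for *Cwc22* (edgeR adjusted p = 0.00100), both now past the threshold. For *Pttg1*, given as a description, the values were 2.45 with no filter and 3.76 over all cells summed. Without 1 retina, *Mxra7* gave 0.96 to 1.13, *Hddc3* -2.78 to 0.0224 and *Cwc22* 0.0781 to 1.77. Whether *Mxra7* and *Cwc22* passed in rods depended on which retina was left out. Against heterozygous retinas, *Hddc3* turned to 0.25 and *Pttg1* to -0.77. Among results short of the threshold, these turned in sign: *Mettl23* in bipolar cells without knockout retina 2 (range without 1 retina -0.10 to 0.45), *Cwc22* in bipolar cells without knockout retina 1 (-1.13 to 2.44), *Mettl23* in explants without 0 nM explant 1 (-0.30 to 0.11) or over all cells summed (0.0033), and *Hddc3* in explants without 0 nM explant 2 (-0.09) or 500 nM explant 1 (-0.24 to 0.27). *Cwc22* passed in bipolar cells without knockout retina 2 (2.44), *Cwc22* in Müller glia without either heterozygous retina (1.82 each), without knockout retina 2 (2.38) and with no filter (1.81), and *Hddc3* in Müller glia without knockout retina 1 (-2.40). At P0, the log2 ratio of the highest to the lowest retina in primary progenitors became 3.70 for *Gm8797*, 0.41 for *Mxra7*, 1.88 for *Cwc22* and 1.70 for *Pttg1* by the share of thinned cells with a UMI, and 0.51 for *Mxra7* over all cells. With Spearman in place of Pearson, 6 of the 18 most similar genes at P0 and 7 of 21 at P14 were shared. The causes were not tested. *Gm8797* in rods, bipolar cells and Müller glia kept its direction and stayed past the threshold under every alternative run. Few UMIs limit *Alox5ap* outside photoreceptors and, for *Pttg1* at P14, all values of the wild type and of heterozygous retina 2. The wild type was nonetheless the most deeply covered P14 retina.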

Other observations

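The genes whose pattern was most like each member are given as a description, by Pearson's r of log2(CPM + 1) centred within each type, over 25 sums of retina and type at P0 and 20 at P14. The points share retinas and libraries. At P0, *Hddc3* was nearest to *Tsix* (r = 0.84), *Xist* (0.82) and *Sh3gl3* (0.81). *Xist* and *Tsix* were high in heterozygous retina 1 and knockout retina 2, the retinas with the most *Hddc3*. At P14 *Xist* was high in heterozygous retina 2, where *Hddc3* was low. A link of *Hddc3* to sex was not tested. *Cwc22* was nearest to *Gm47283* at P0 (r = 0.87). *Gm8797* was nearest to *Ssr1* at P0 (r = 0.79) and to *Dr1* at P14 (r = 0.74).

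For *Mxra7* the nearest genes were *Tubb4a* (r = 0.83) and *Thap12* (r = 0.80), for *Mettl23* *Eif3j2* (0.81) and *Arxes2* (0.76), and for *Pttg1* *Tagln3* (0.72) and *Tox4* (0.70), at P0 and P14 in turn. Spearman's rho for these pairs ran from 0.44 (*Mettl23* with *Eif3j2*) to 0.83 (*Pttg1* with *Tox4*). *Alox5ap* at P14 was nearest to *Gaa* (r = 0.81).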
